A study of Danio rerio with 12 samples.

Results

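The genes described here are 10 zebrafish genes of the bone morphogenetic protein (BMP) pathway and of the ventral ectoderm it patterns: bmp2b, bmp4, bmp7a, szl, vox, vent, ved, tp63, tfap2a and gata2a. They were taken by name, as 10 of the 22737 genes of a count table, and all 10 passed the filter on low counts in each fit. RNA of 12 libraries was sequenced, 2 in each of 6 groups. Of these groups, 4 were whole embryos of the shield stage at an age of 6 h: wild type of strain Tu, anp32e null of strain NHGRI, and the maternal null and paternal null, both labelled as crosses of Tu and NHGRI. Anp32e is a histone chaperone known for taking the variant H2A.Z out of nucleosomes, and the series concerns nucleosomes that govern DNA methylation between germline and embryo. The fifth group was embryos at the sphere stage, an earlier stage than shield, labelled as injected with Anp32e protein, with no strain given. The sixth was labelled sperm of anp32e null fish, also with no strain given. Genotype and strain changed together in every shield comparison except that between the crosses, so mutation and strain cannot be told apart in those. Both crosses hold both strains. Since null fish were NHGRI and wild type Tu, the strain of each parent would change with its genotype between the crosses. The 2 cannot be told apart there either.

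BMP ligands pattern the dorsal to ventral axis of the early vertebrate embryo. In zebrafish, dimers of Bmp2b and Bmp7a are the main ligand, and they act through type I and type II receptors on Smad1/5 transcription factors. Chordin, made by the dorsal organizer, holds the ligands back, and Tolloid proteases cut Chordin and free them. High signalling at the ventral side keeps vox, vent and ved on, 3 homeobox repressors of dorsal genes, and directs ectoderm to epidermis, where tp63, tfap2a and gata2a are expressed. Neural plate forms where the signal is low.

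Library totals ran from 13.5 to 47.7 M counts. Levels are counts scaled to a fixed library total (CPM), which are not per length, so levels are compared between libraries and not between genes. The table gave anp32e at 2285 and 3172 CPM in wild type, 81.2 and 80.5 CPM in null, 1212 and 1226 CPM in maternal null and 1420 and 1413 CPM in paternal null. Null embryos thus held 2.96% of the mean wild-type level and the crosses lay between, as their labels imply. The libraries of null, maternal null, paternal null and injected embryos differed within each pair nearly as little as sampling of reads allows (with chi-square over its degrees of freedom at 1.05, 1.16, 1.17 and 1.05), and each pair was counted as 1 sample. The wild-type libraries (95.2) and those labelled sperm (42.9) differed far beyond it. Of the 10 genes 6 had a chi-square over 4 between the wild-type libraries, against 0 of 10 between the null and between the injected libraries. Between the maternal null libraries 2 of the 10 had one (at most 6.66), and between the paternal null libraries 1 (7.51). The share of all genes over 4 was not counted, so these counts do not set the 10 genes apart. Counting intervals and floors cover counting error only, and no label says that libraries of a group came from separate clutches.

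Each comparison was therefore made with edgeR in a library fit, which takes every library as a sample, and in a sample fit, in which each near-identical pair is summed to 1 sample. In the shield sample fit no group but wild type gives a spread. A gene is said to have risen or fallen if it was past an adjusted p of 0.05 in the same direction in both. A gene past it in the library fit only is given as higher or lower there, with the adjusted p of both fits.

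In null embryos the epidermal factor tp63 rose over wild type, with a log2 fold change of 2.22. In the library fit alone the ectodermal factors tfap2a and gata2a were higher and the repressors vent and ved lower, while the ligands bmp2b, bmp4 and bmp7a, szl and vox passed neither fit. With tp63, 3 of the 10 were higher and 2 lower in the library fit, where 16.8% and 19.4% of all genes tested were. The count of lower genes was thus near the share over all genes, and that of higher genes was not tested against it. In both fits 1 of 10 was called, against 4.54% of all genes. In CPM, 5 of the 10 lay above both wild-type libraries in both null libraries and 3 below, where 31.8% and 32.4% of all genes did. The median log2 fold change of the 10 genes was 0.15, and that of all genes tested was -0.03. Since whole embryos were sequenced, fewer cells of a type and less RNA per cell cannot be told apart.

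**Figure D1:**
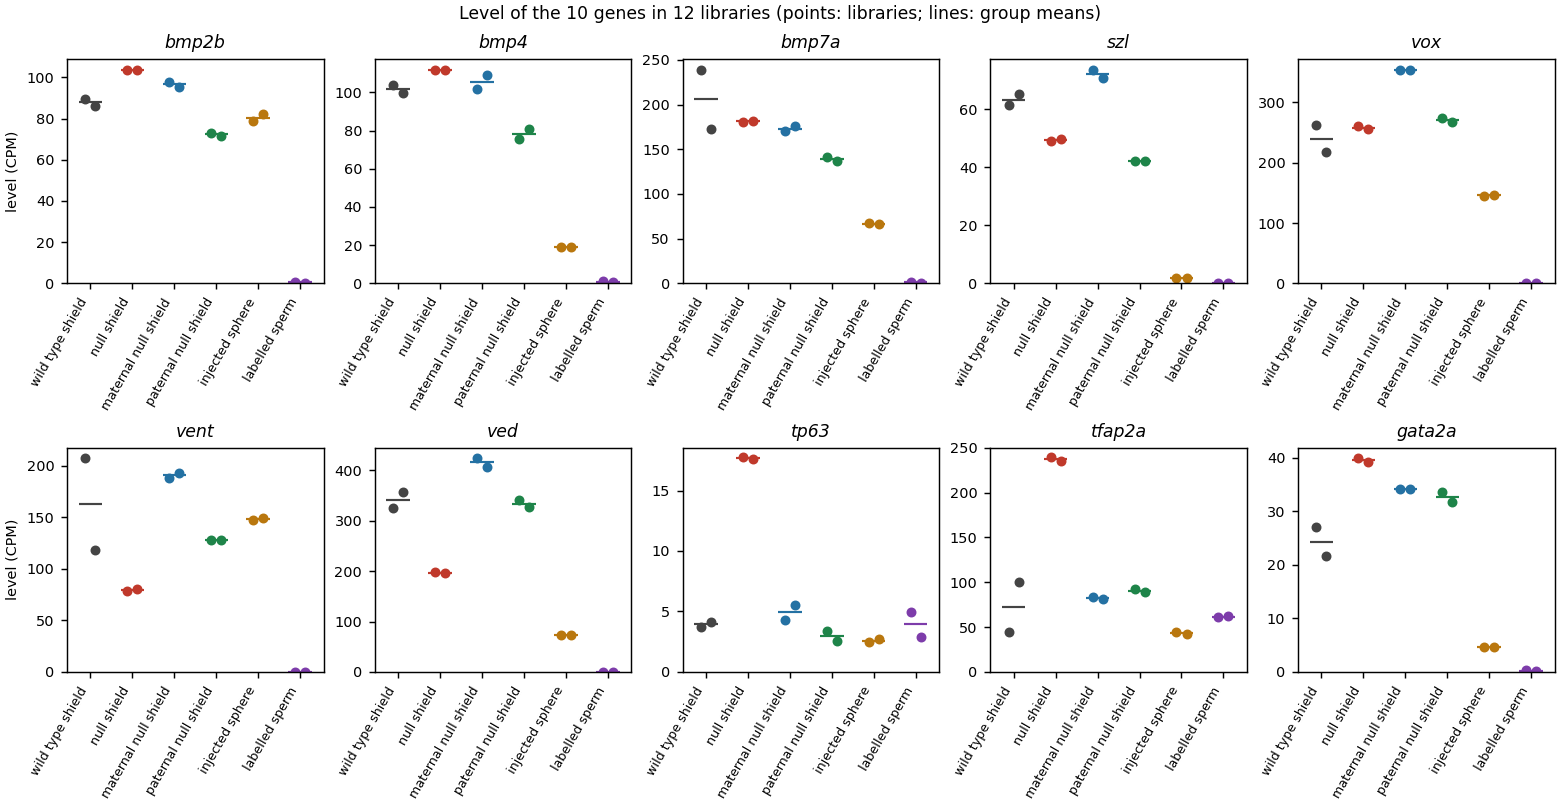
Level of each of the 10 genes in CPM (vertical axis, from 0, one scale per gene) in the 12 libraries, by group (horizontal axis); points are libraries and short lines are the mean of the 2 libraries of a group. The null libraries stand above all other libraries for tp63 (17.8 and 17.6 CPM) and tfap2a (240 and 235 CPM), and the wild-type libraries lie far apart for tfap2a and vent.

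The 3 ligands had log2 fold changes between -0.14 and 0.26 in null embryos, and their lowest shield levels in paternal null. The gene bmp2b (ENSDARG00000041430, chr20:45989444-45995429, Zv10) encodes the ligand whose loss turns zebrafish embryos dorsal. Its level was 89.7 and 86.3 CPM in wild type, 103 and 104 CPM in null, 98.0 and 95.3 CPM in maternal null and 73.0 and 71.6 CPM in paternal null. No libraries of different shield groups overlapped, and the paternal null libraries were the lowest. Against wild type the log2 fold change was 0.26 in null (SE 0.10, edgeR adjusted p = 0.0912), 0.16 in maternal null (SE 0.10, adjusted p = 0.422) and -0.28 in paternal null (SE 0.11, adjusted p = 0.163). None of the 3 passed the threshold, although the null and the crosses lay outside the narrow range of wild type.

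The gene bmp4 (ENSDARG00000019995, chr17:50485000-50507066) encodes a ligand that acts at the ventral side and later in the tail. Its levels were 104 and 99.5 CPM in wild type, 112 CPM in both null libraries, 102 and 109 CPM in maternal null and 75.7 and 80.6 CPM in paternal null. Maternal null overlapped wild type, null lay just above it and paternal null below all other shield libraries. The log2 fold change against wild type was 0.16 in null (SE 0.11, edgeR adjusted p = 0.277) and -0.38 in paternal null (SE 0.11, adjusted p = 0.0905).

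The gene bmp7a (ENSDARG00000018260, chr11:7097958-7137701) encodes the partner of Bmp2b. Wild type gave 239 and 173 CPM, null 181 and 182 CPM, maternal null 171 and 175 CPM and paternal null 141 and 137 CPM. Its wild-type libraries spanned the null level in CPM, though not with TMM scaling, and the paternal null was again lowest. In paternal null it was lower in the library fit (log2 fold change -0.55, SE 0.12, edgeR adjusted p = 0.0442), a call lost in the sample fit (adjusted p = 1.0) and without either paternal null library (adjusted p = 0.257 and 0.279). In null the log2 fold change was -0.14 (SE 0.12, adjusted p = 0.392).

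The gene szl (ENSDARG00000099637, chr25:348505-353000) encodes Sizzled, a secreted inhibitor of the Tolloid proteases that BMP signalling turns on at the ventral side, so that it closes a feedback loop. It was at 61.4 and 65.4 CPM in wild type, 49.3 and 49.9 CPM in null, 73.7 and 70.7 CPM in maternal null and 42.3 and 42.1 CPM in paternal null. Its wild-type libraries lay close together, with null and paternal null below them and maternal null above, although maternal null overlapped wild type when levels were scaled by TMM. Against wild type it was lower in paternal null in the library fit (log2 fold change -0.59, SE 0.13, edgeR adjusted p = 0.0451) and not in the sample fit (adjusted p = 1.0) or without either paternal null library (adjusted p = 0.262 and 0.267). In null the log2 fold change of -0.33 did not pass (SE 0.13, edgeR adjusted p = 0.0841).

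The repressors vox, vent and ved did not move as a group in null embryos. The gene vox (ENSDARG00000099761, chr13:50307002-50309275) lies 7.01 kb from vent (ENSDARG00000100483, chr13:50293012-50299989), with no other gene of the table between them, while ved (ENSDARG00000102389, chr10:45150449-45155584) is on another chromosome. All 3 encode homeobox proteins that hold organizer genes off the ventral side, and they overlap in function.

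The levels of vox were 263 and 217 CPM in wild type, 260 and 256 CPM in null, 354 CPM in both maternal null libraries and 275 and 267 CPM in paternal null. Null overlapped wild type in CPM, lay just above it with TMM scaling, and maternal null stood highest. The log2 fold change was 0.14 in null (SE 0.10, edgeR adjusted p = 0.329) and 0.60 in maternal null, where vox was higher in the library fit (SE 0.11, adjusted p = 0.0263) but not in the sample fit (adjusted p = 1.0). That call was also lost without maternal null replicate 1 or replicate 2 (edgeR adjusted p = 0.211 and 0.216).

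Its neighbour vent was at 207 and 118 CPM in wild type, 78.2 and 80.8 CPM in null, 188 and 193 CPM in maternal null and 128 CPM in both paternal null libraries. The null libraries were the lowest of the shield stage, but in CPM the wild-type libraries differed by more than null differed from the lower of them. On the log2 scale with TMM scaling the order was the other way. Replicate 2 of wild type then lay at -0.58 from replicate 1, and null at -0.66 from replicate 2 in the fit without replicate 1. The null level was 0.384 times that of wild type replicate 1 and 0.674 times that of replicate 2. In the library fit vent was lower in null (log2 fold change -0.98, SE 0.19, edgeR adjusted p = 0.00862), a call lost in the sample fit (SE 0.60, adjusted p = 0.480). Leaving out null replicate 1 or replicate 2 also ended it (adjusted p = 0.0712 and 0.0616). The log2 fold change was -0.66 without wild type replicate 1 and -1.24 without wild type replicate 2.

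The third repressor, ved, was at 325 and 357 CPM in wild type, 198 and 196 CPM in null, 424 and 408 CPM in maternal null and 341 and 327 CPM in paternal null. Null was below, and maternal null above, all libraries of the other shield groups. Here the wild-type libraries were close, and null held 0.605 and 0.552 times their levels. In the library fit ved was lower in null (log2 fold change -0.77, SE 0.15, edgeR adjusted p = 0.00834), but the sample fit did not call it (SE 0.64, adjusted p = 0.686), nor did the library fit without either null library (adjusted p = 0.0685 and 0.0707).

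The ectodermal factors tp63 and tfap2a gave the largest fold changes among the 10 genes in null. The gene tp63 (ENSDARG00000044356, chr6:28805218-28923664) encodes a p53 relative needed for the basal layer of epidermis, and in zebrafish its shorter form is turned on by BMP signalling. Its level was 3.70 and 4.14 CPM in wild type, 17.8 and 17.6 CPM in null, 4.33 and 5.51 CPM in maternal null and 3.40 and 2.59 CPM in paternal null. The null libraries were 4.78 and 4.28 times the wild-type libraries, and no library of another shield group came near them. These levels rest on 93 and 56 counts in wild type, against 457 and 374 counts in null, and the Wilson 95% interval was 3.19 to 5.38 CPM in wild type replicate 2 and 15.9 to 19.5 CPM in null replicate 2.

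The rise of tp63 in null passed both fits (log2 fold change 2.22, SE 0.21, edgeR adjusted p = 0.000819 in the library fit; SE 0.61, adjusted p = 0.0208 in the sample fit). Neither cross passed, with a log2 fold change of 0.37 in maternal null (SE 0.22, adjusted p = 0.371) and -0.37 in paternal null (SE 0.22, adjusted p = 0.372). Against the crosses themselves null was higher by 1.84 and 2.59 on the log2 scale in the library fit (edgeR adjusted p = 0.00215 against maternal and 0.000744 against paternal null). In the sample fit those 2 differences did not pass (adjusted p = 0.362 and 0.0724).

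The gene tfap2a (ENSDARG00000059279, chr24:8581298-8592141) encodes an AP-2 factor of nonneural ectoderm and, later, neural crest. Its wild-type libraries read 44.3 and 100 CPM, against 240 and 235 CPM in null, 83.9 and 81.5 CPM in maternal null and 91.9 and 88.6 CPM in paternal null. Null stood above every other library, and both crosses lay between the wild-type libraries. Null was 5.37 times wild type replicate 1 and 2.37 times replicate 2. In the library fit tfap2a was higher in null (log2 fold change 1.71, SE 0.40, edgeR adjusted p = 0.0171) and in the sample fit it just missed the threshold (SE 0.56, adjusted p = 0.0633). It passed when the filter on low counts was also set anew for the 5 samples (adjusted p = 0.0418). Without wild type replicate 1 the log2 fold change was 1.16, without wild type replicate 2 it was 2.56, and without null replicate 1 or replicate 2 the library fit no longer called it (adjusted p = 0.0800 and 0.0747).

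The gene gata2a (ENSDARG00000059327, chr11:3828493-3846289) encodes a GATA factor of ventral ectoderm and of blood. It was at 27.0 and 21.7 CPM in wild type, 39.9 and 39.2 CPM in null, 34.2 CPM in both maternal null libraries and 33.6 and 31.6 CPM in paternal null. Every library with a null parent was above both wild-type libraries. In the library fit gata2a was higher in null (log2 fold change 0.74, SE 0.10, edgeR adjusted p = 0.00262) and in maternal null (0.53, SE 0.10, adjusted p = 0.0335), while paternal null just missed (0.43, SE 0.10, adjusted p = 0.0525). None of these passed the sample fit (adjusted p = 0.599, 1.0 and 1.0). The call in null held without either null library. It also held without either wild-type library, but then only near-identical pairs gave the spread, so those fits are no check of the call. The call in maternal null was lost without either maternal null library (adjusted p = 0.240 and 0.239).

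**Figure D2:**
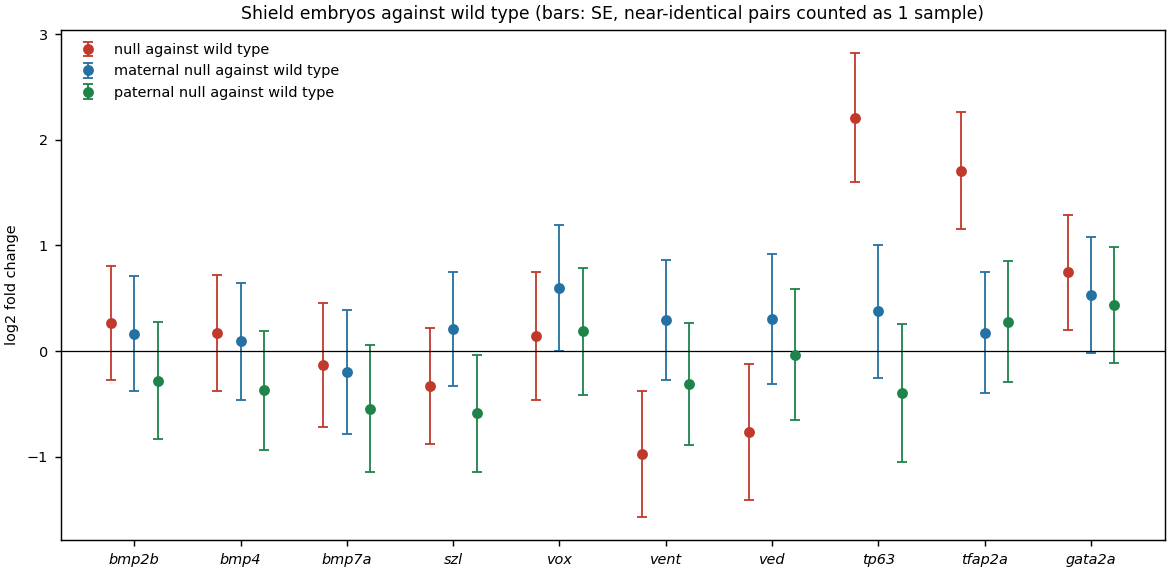
Log2 fold change against wild type (vertical axis) of the 10 genes (horizontal axis) in null, maternal null and paternal null shield embryos, from the fit with each near-identical pair counted as 1 sample; bars are 1 SE. The point for tp63 in null is at 2.21, followed by tfap2a at 1.71, and the bars of the 3 ligands, szl and vox in null cross 0.

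The wild-type libraries set the precision of all these comparisons. Scaled by TMM, wild type replicate 2 was above replicate 1 by 1.41 for tfap2a on the log2 scale, a difference larger than that of 97.1% of all genes tested, and below it by 0.58 for vent, lower than all but 26.5% of them. For the other 8 genes the difference lay between -0.24 and 0.40, within the range from the 5th to the 95th percentile of all genes (-1.61 to 1.17). For tfap2a and tp63 replicate 2 was the library nearer to null, and for vent too. With library totals in place of TMM the differences of bmp2b and bmp4 changed sign, from 0.18 to -0.05 and from 0.17 to -0.06.

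The reciprocal crosses carry the null allele through 1 parent and hold the same strains, although the strain of each parent would change with its genotype. In maternal null against wild type 2 of 10 genes were higher in the library fit (vox and gata2a) and 0 lower, where 3.33% and 2.67% of all genes were. In paternal null 0 were higher and 2 lower (bmp7a and szl), against 4.7% and 2.32% of all genes. The sample fit called 0 of 10 in either cross and 0.47% and 0.0835% of all genes, and 0 of 10 had an unadjusted p under 0.05 in it; DESeq2 on every library called 2 in each. In CPM, 6 of the 10 genes in maternal null were above both wild-type libraries and 0 below, where 21.0% and 22.6% of all genes were. In paternal null 2 were above and 5 below, where 22.5% and 23.0% of all genes were. These places depend on scaling. With TMM, bmp7a in maternal null lay below wild type and vent above it, while szl and tp63 overlapped it. In paternal null vent then lay below wild type.

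Set directly against each other, maternal null was higher than paternal null in szl (log2 fold change 0.80, SE 0.13, edgeR adjusted p = 0.0156), bmp4 (0.46, SE 0.11, adjusted p = 0.0481) and bmp2b (0.44, SE 0.11, adjusted p = 0.0471) in the library fit. The share of all genes higher there was 3.66%. None of these calls held in the sample fit, which holds 1 sample of each cross. DESeq2 on every library called 4 of the 10, and the share of all genes it called is not given here. Without any 1 of the 4 cross libraries the library fit called 0 of the 10 as well. For 9 of the 10 genes the fold change was above 0, the exception being tfap2a at -0.10. The median log2 fold change was 0.43 over the 10 genes and 0.02 over all genes tested. How many of all genes lay above 0 was not counted. The 10 genes were read in the same 4 libraries, and their common direction was not tested.

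Null against maternal null gave 2 genes higher (tp63 and tfap2a) and 4 lower (vent, ved, szl and vox) in the library fit, where 14.5% and 17.5% of all genes were. The lower genes ranged from vent (log2 fold change -1.26, SE 0.19, edgeR adjusted p = 0.00471) through ved (-1.08, SE 0.15, adjusted p = 0.00368) and szl (-0.54, SE 0.13, adjusted p = 0.0207) to vox (-0.45, SE 0.11, adjusted p = 0.0189). Null against paternal null gave 5 higher (tp63, tfap2a, bmp2b, bmp4 and bmp7a) and 2 lower (ved and vent), where 16.7% and 19.4% of all genes were. The 3 ligands were higher by 0.54, 0.54 and 0.41 on the log2 scale (edgeR adjusted p = 0.00901, 0.0105 and 0.0354) in that order. The log2 fold changes of ved and vent were -0.74 and -0.66 (edgeR adjusted p = 0.0101 and 0.0328). The sample fit called 0 of 10 in both comparisons, and 0.73% and 1.18% of all genes, with 2 of 10 at an unadjusted p under 0.05 in each, and DESeq2 on every library called 6 and 7. With 1 library of these groups left out, whichever it was, the library fit called 2 or 3 of the 10 against maternal null and 1, tp63, against paternal null. These comparisons share the null libraries with each other and with the comparison against wild type. The interaction of both parents' genotypes was the null minus maternal null difference less the paternal null minus wild type difference. It passed for 4 of 10 genes in the library fit (bmp7a, vox, ved and tp63) and for none in the sample fit. It passed for 17.0% of all genes in the library fit. DESeq2 called 5 of the 10, again with no share of all genes given here. All 4 calls were lost without any 1 of the 6 libraries of null and the crosses.

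The rest of the pathway was read from lists of its components. These lists, and those of targets and ectoderm genes below, were chosen with earlier results of these data known. Their counts beside shares of all genes are therefore no independent test. Of 6 further ligands tested in null against wild type, 1 was higher and 1 lower in the library fit. Of 13 receptors 1 was higher and 2 lower, of 10 Smads and their ligases 0 were higher and 3 lower, and of 12 extracellular regulators 1 was higher and 1 lower, where 16.8% of all genes were higher and 19.4% lower. None of these 41 genes passed the sample fit. In the library fit 20 of them had an unadjusted p under 0.05, where 9089 of all 19166 genes had one. The regulator chrd, which encodes Chordin, was at 366 and 198 CPM in wild type, 328 and 338 CPM in null, 208 and 202 CPM in maternal null and 240 and 235 CPM in paternal null. Its null level lay between the wild-type libraries, with a log2 fold change of 0.30 (SE 0.21, edgeR adjusted p = 0.289). Without wild type replicate 1 it was 0.66 and without wild type replicate 2 it was 0.0033.

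Of 14 tested genes listed here as direct targets of BMP signalling, 7 were higher in null than in wild type in the library fit. In that fit 0 were lower (16.8% of all genes were higher and 19.4% lower), and 2 rose in both fits, id2b and id4. Whether the listed genes answer to BMP in these embryos was not tested. The median log2 fold change of the list was 1.07. In CPM the null libraries were above both wild-type libraries for 12 of the 14 and below for 0, where 31.8% and 32.4% of all genes were. The wild-type libraries differed in the same list, since replicate 2 was above replicate 1 for 10 of the 14. With library totals the median log2 difference of replicate 2 from replicate 1 was -0.29 over all genes tested. The share of all genes higher in replicate 2 was not counted.

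The genes id2b and id4 encode Id proteins, which block basic helix-loop-helix factors. The level of id2b was 0.08 and 0.07 CPM in wild type, 1.75 and 1.84 CPM in null, 0.22 and 0.81 CPM in maternal null and 0.33 and 0.54 CPM in paternal null. These are 2 counts and 1 count in wild type, against 45 and 39 counts in null, and the wild-type libraries are below the floor of 3 counts. The pooled CPM ratio of null to wild type was 23.1 (exact binomial 95% interval 7.63 to 114). The gene rose in both fits, with a fitted log2 fold change of 4.5 that rests on these few counts (SE 0.68, edgeR adjusted p = 0.00366; sample fit SE 1.01, adjusted p = 0.00268). The level of id4 was 1.99 and 1.18 CPM in wild type, 10.1 and 9.72 CPM in null, 1.84 and 2.21 CPM in maternal null and 8.13 and 6.93 CPM in paternal null. Both null and paternal null stood apart from the other 2 groups, and the rise in null was 2.64 on the log2 scale (SE 0.21, edgeR adjusted p = 0.000466; sample fit SE 0.64, adjusted p = 0.00554). In paternal null id4 was higher in the library fit by 2.22 (adjusted p = 0.00548) and not in the sample fit (adjusted p = 0.211).

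Other targets, chosen for display after their values were seen, had wild-type libraries far apart. The homeobox gene cdx4 of the posterior body read 106 and 309 CPM in the wild-type libraries, against 435 and 439 CPM in null, and dlx3b of the placode border at 0.36 and 8.5 CPM there, against 48.5 and 49.7 CPM. Null was above both wild-type libraries in each, and replicate 2 was the nearer of them. The target eve1, a homeobox gene of the ventral margin, did not follow: null stood at 145 CPM in both libraries, beside 144 and 215 CPM in wild type.

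**Figure D3:**
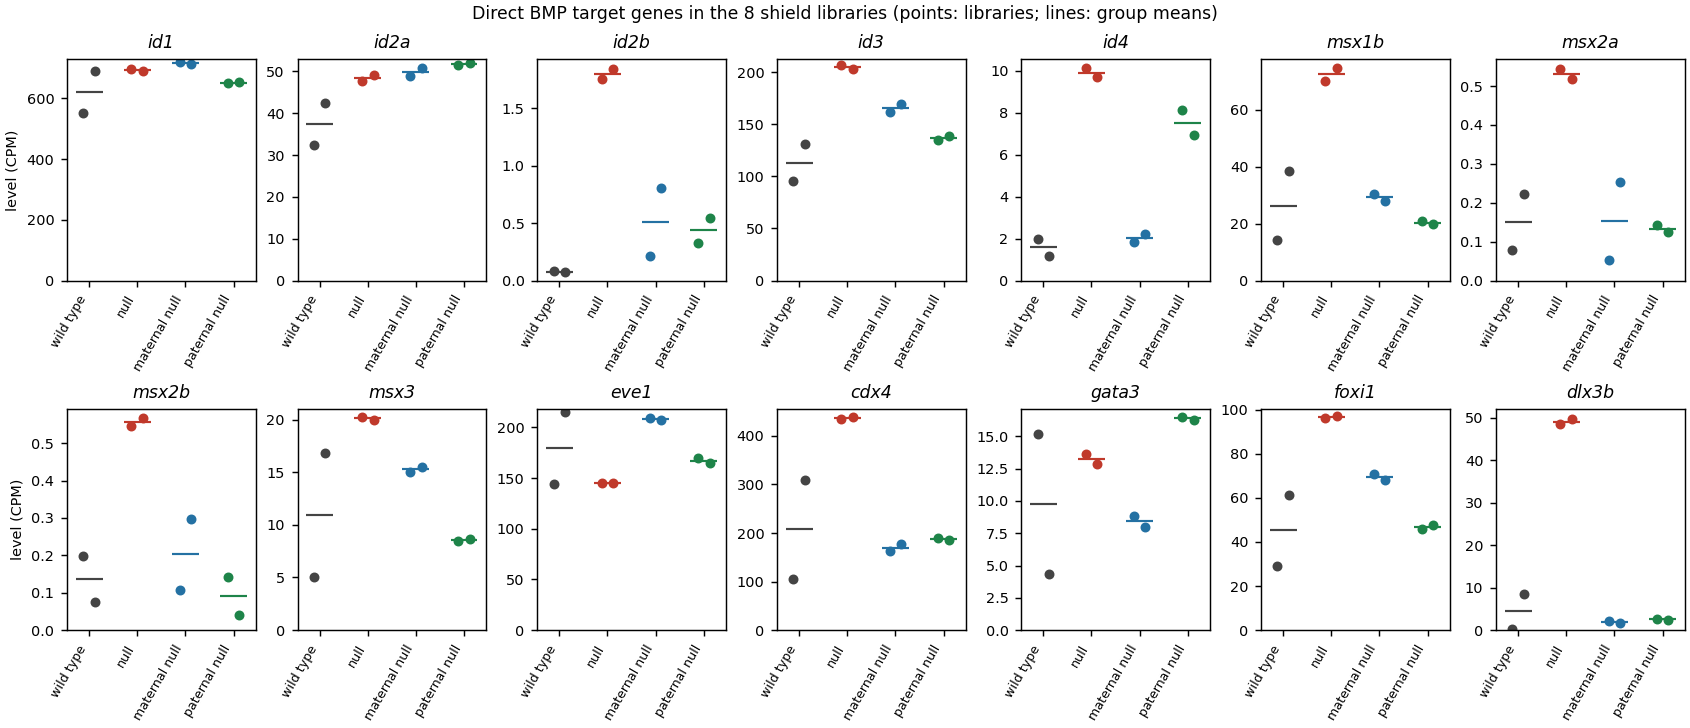
Level in CPM (vertical axis, from 0, a separate scale per gene) of the 14 genes listed as direct BMP targets. The 8 shield libraries are set by group (horizontal axis). Points are libraries and lines are group means. Null is above both wild-type libraries for 12 of the 14 genes, and eve1 and gata3 are the exceptions.

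Among 17 further genes of ventral ectoderm and epidermis, 7 were higher and 1 lower in null in the library fit (16.8% and 19.4% of all genes), with a median log2 fold change of 0.45. Of these foxi3a rose, a forkhead gene of epidermal ionocytes. Its wild-type libraries gave 0.08 and 0.30 CPM, its null libraries gave 2.26 and 2.22 CPM, and it lay between 0.21 and 0.43 CPM in the crosses. The null libraries alone stood apart, with a log2 fold change of 3.83 (SE 0.50, edgeR adjusted p = 0.00224; sample fit SE 0.92, adjusted p = 0.00761). The wild-type levels are 2 and 4 counts, against 58 and 47 in null, and the pooled CPM ratio was 14.4 (exact binomial 95% interval 6.41 to 40.2). The log2 fold change was 2.81 without wild type replicate 1 and 4.85 without wild type replicate 2. In the crosses no listed target or ectoderm gene passed the sample fit against wild type, which holds 1 sample of each cross. In the library fit of maternal null 2 of 14 targets and 1 of 17 ectoderm genes had an unadjusted p under 0.05. Of all 19166 genes 4418 had one there. In paternal null 3 targets and 8 ectoderm genes had one, where 4620 of all genes did. In the library fit 0 targets and 1 ectoderm gene were higher in maternal null, where 3.33% of all genes were. In paternal null 1 target and 2 ectoderm genes were higher, where 4.7% of all genes were. None was lower in either, where 2.67% and 2.32% of all genes were.

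Markers of some other cell types moved beside these genes. Their lists, that of later neural genes among them, were also drawn up with earlier results of these data known. The counts below, set beside shares of all genes, are thus a description and not an independent test. The summed level of 16 enveloping layer genes, the outer epithelium of the embryo, was 3725 and 1855 CPM in wild type, 8113 and 8140 CPM in null, 3544 and 3542 CPM in maternal null and 9849 and 9870 CPM in paternal null. Of these 16 genes 13 were higher in null in the library fit (16.8% of all genes), 9 of them rose and 0 fell (2.11% and 2.43% of all genes). Paternal null had the highest sum and the lowest tp63 of the shield groups. The summed level of 11 genes of the yolk syncytial layer, the nucleated layer at the yolk surface, was 1927 and 1856 CPM in wild type, 2468 and 2466 CPM in null, 2269 CPM in both maternal null libraries and 2161 and 2180 CPM in paternal null. Most of these sums is the gene ctsla, at 1751 and 1704 CPM in wild type and a mean of 1969 CPM in null. Of these 11, 8 were higher and 1 lower in null in the library fit and 5 rose, with a median log2 fold change of 1.22. Of 13 later neural patterning genes 8 were higher in null and 6 rose, beside the same shares of all genes, and the summed level of the 16 in the table was 199 and 232 CPM in wild type, 366 and 368 CPM in null, 209 and 207 CPM in maternal null and 169 and 165 CPM in paternal null. Of the neural sums zic2a alone gave 145 and 158 CPM in wild type and a mean of 172 CPM in null. In every shield library all 11 yolk syncytial layer genes and 15 or 16 of each of the other 2 lists had counts, and those at 0 in a library were icn2, sox1a or egr2b. Oocyte transcripts summed to 321 and 200 CPM in the wild-type libraries, against 127 and 125 CPM in null. Their sums were 241 and 245 CPM in maternal null and 341 and 330 CPM in paternal null. In the library fit 9 of 12 were lower in null than in wild type, where 19.4% of all genes were. Of 11 dorsal organizer genes 2 were higher and 3 lower in null in the library fit, where 16.8% and 19.4% of all genes were. None of them rose or fell, and their median log2 fold change was -0.11. Of 5 ventral mesoderm genes 0 were higher and 0 lower, with a median of 0.07. The part of cell make-up or of developmental age in the differences of the 10 genes was not tested.

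**Figure D4:**
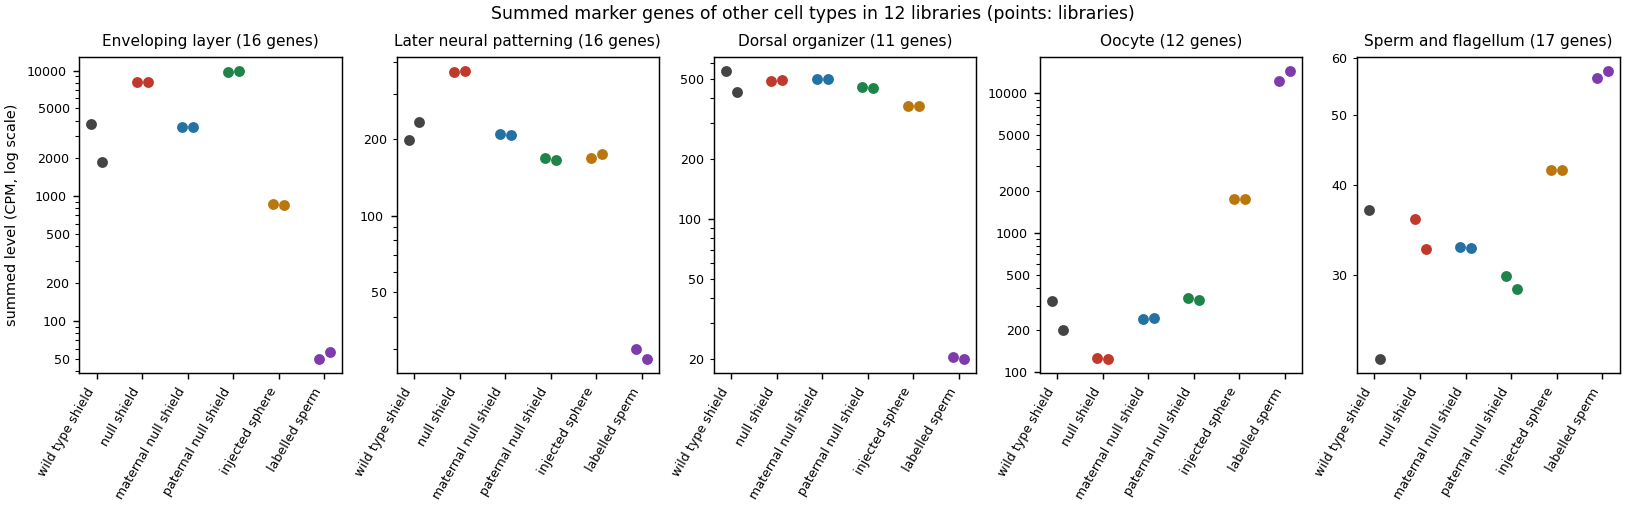
Summed level in CPM (vertical axis, log scale) of marker genes of 5 cell types in the 12 libraries by group (horizontal axis). Points are libraries. The lists were chosen with earlier results of these data known. Null exceeds both wild-type libraries in the enveloping layer and later neural lists, and the libraries labelled sperm hold 12243 and 14366 CPM of oocyte genes.

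Injected sphere embryos were compared with wild-type shield embryos, since no uninjected sphere library was analysed here, and injection and stage cannot be told apart. All 10 genes were lower in the library fit, where 32.1% of all genes were lower, and 5 of them fell in both fits (13.3% of all genes fell). The steepest was szl, at 2.00 and 1.70 CPM against 61.4 and 65.4 CPM in wild type (log2 fold change -5.51, SE 0.20, edgeR adjusted p = 8.29e-08; sample fit adjusted p = 0.00104). The genes bmp4 (19.2 and 18.8 CPM, log2 fold change -2.83), gata2a (4.57 CPM in both, -2.81), ved (72.8 and 73.7 CPM, -2.64) and bmp7a (67.7 and 66.0 CPM, -2.01) also fell, with SEs between 0.14 and 0.19. Their levels were 18.7%, 18.8%, 21.5% and 32.5% of the wild-type mean in CPM.

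The others came nearer to shield levels. At sphere bmp2b was at 78.9 and 82.0 CPM and vent at 148 and 149 CPM, which are 91.4% and 91.3% of the wild-type mean. The levels of vox were 146 and 147 CPM, of tfap2a 44.3 and 42.0 CPM and of tp63 2.49 and 2.70 CPM. These 5 genes passed in the library fit alone (edgeR sample fit adjusted p from 0.126 to 0.371). Calls were lost without injected replicate 1 for bmp2b, vent and tp63 (adjusted p = 0.109, 0.0743 and 0.0623) and without injected replicate 2 for bmp2b, vent and tfap2a (adjusted p = 0.0820, 0.0693 and 0.0540). For 3 of them the call rests on the scaling. With library totals in place of TMM the median of all genes moved from -0.01 to 0.37, the genes called went from 6709 higher and 6831 lower to 8819 higher and 4858 lower, and bmp2b (-0.13), vent (-0.13) and tp63 (-0.59) no longer passed. Among the 14 listed targets 0 rose and 8 fell, with a median log2 fold change of -1.97. Among 19 ventral ectoderm genes 1 rose and 5 fell, where 16.6% of all genes rose and 13.3% fell.

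Beside the embryo libraries, those labelled sperm were far higher in summed oocyte markers and less so in summed sperm markers. Oocyte genes such as zar1 (1204 and 1249 CPM) and buc (1710 and 1622 CPM), both needed in the egg, summed to 12243 and 14366 CPM with all 12 detected. In the embryo libraries that sum was 125 to 1744 CPM. The 17 sperm and flagellum genes summed to 56.4 and 57.5 CPM, against 23.0 to 42.0 CPM in the embryo libraries. All 17 had counts in both libraries, and of the 14 tested against null shield embryos 8 rose and 1 fell, with a median log2 fold change of 2.01, where 31.1% of all genes rose. All 10 ventral genes fell from null shield embryos to these libraries in both fits, where 31.4% of all genes fell. For bmp2b, bmp4, bmp7a, ved and gata2a the level there was 0.129% to 0.849% of that in null shield embryos. The gene szl had 0 and 1 counts, which is 0.0234% of the null shield level (exact Poisson 95% interval 0.000591% to 0.130%), and vox 0 and 4 counts and vent 2 in each.

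The levels of tp63 and tfap2a stayed nearer to those of embryos in the libraries labelled sperm. The level of tp63 was 4.99 and 2.92 CPM, on 238 and 113 counts, and overlapped wild-type shield embryos. The level of tfap2a was 61.1 and 61.9 CPM and lay between the wild-type shield libraries. They were at 22.9% and 25.8% of null shield embryos, with log2 fold changes of -2.23 (SE 0.25, edgeR adjusted p = 9.15e-06; sample fit adjusted p = 0.00169) and -2.02 (SE 0.34, adjusted p = 0.000225; sample fit adjusted p = 0.00551). Both genes were thus called as fallen against null embryos, in which they were highest, while their CPM overlapped the wild-type range.

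Across the 8 samples left after summing near-identical pairs, the genes whose profiles of log2(CPM + 1) lay nearest to each of the 10 were sought among 9967 genes with a highest level of at least 10 CPM. The root mean square difference was lowest for bmp4 with zic2a (0.15), and was 0.23 for ved with tbxta, the mesoderm gene Brachyury, and 0.24 for vent with mex3b. For szl the nearest were mespab (0.34), prdm14 (0.37) and tbx16l (0.51), for bmp2b mt-nd6 (0.22) and for bmp7a si:ch211-170d8.2 (0.20). For vox si:dkey-92i17.2 was nearest (0.25), and sox3 was among the 3 nearest of both vox (0.33) and ved (0.37). The nearest of tp63 was acsl3a (0.35), of tfap2a rasl11b (0.27) and of gata2a slc29a3 (0.29). The median over all candidates ran from 1.10 for tp63 to 3.55 for vox. These values are a description over 8 samples that include the libraries labelled sperm, in which 8 of the 10 genes were at most 0.849% of their null shield level.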

How the data were processed

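Total RNA of 12 zebrafish libraries was measured, 2 in each of 6 groups taken from the labels. Per the labels' protocols, Trizol with SDS was used for extraction, and stranded TruSeq libraries were built from RNA depleted with Ribo-Zero Gold. The authors deposited read counts per Ensembl gene, not normalized. The submitters' processing notes name Novoalign 2.8 and DESeq2; for the counter, annotation release and strand setting the sources used here name nothing, and coordinates are headed Zv10. The lowest maximum count of a gene over the libraries is 10. Symbols were matched by Ensembl identifier through the reference tables; bmp2b and gata2a, whose symbol fits more than 1 gene, were settled by neighbouring genes (13 and 20 shared neighbours, against 1 and 0 for the other copy). The members and gene lists were chosen with earlier results of these data known, and 174 of 203 list genes were found. Exonic lengths and sequences were not used here.

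Tests on counts came from edgeR 4.0.16 under R 4.3.3 (TMM scaling, filterByExpr, quasi-likelihood F test in its robust form), with Benjamini-Hochberg adjustment at 0.05 over all genes tested. The shield comparisons used 8 libraries (19166 genes, 4 residual degrees of freedom, common coefficient of variation 0.167). The sphere and labelled sperm comparisons used all 12 (21251 genes, 6 residual degrees of freedom). The fit that sums near-identical pairs holds 5 shield samples with 1 residual degree of freedom (coefficient of variation 0.342), or 8 samples with 2. SEs are the log2 fold change over the root of F, and those given without a fit are from the library fit. DESeq2 1.42.0 was an alternative, as were other scalings and filters, a replicate block and leaving out each library. Embryo libraries totalled 13.5 to 25.7 M counts, and those labelled sperm 38.7 and 47.7 M. Same-numbered libraries of the shield groups deviated with correlations from -0.016 to 0.025 over 6 pairs of groups, so the numbers were not taken to pair them. From the BMP and ectoderm lists the text names, by rule, genes that rose or fell in both fits at the shield stage, and chrd. Other list genes it names (cdx4, dlx3b, eve1, gata3, ctsla, zic2a, zar1, buc and those listed at 0) were chosen after their values were seen. The genes of likest profile are the 3 nearest of each member, of which the text gives 1 to 3.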

Additional observations from a re-analysis of the deposited data

Results flagged for a closer look

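For 4 of the 10 genes the interaction term of the mother's and father's genotypes passed in the library fit. It was 2.22 on the log2 scale for tp63 (SE 0.30, edgeR adjusted p = 0.00978), which was high where both parents were null and in no other shield group. It was -1.04 for ved (SE 0.21, adjusted p = 0.0219), -0.64 for vox (SE 0.15, adjusted p = 0.0324) and 0.61 for bmp7a (SE 0.17, adjusted p = 0.0492). With each near-identical pair counted as 1 sample none passed (adjusted p = 0.848 for tp63 and 1.0 for the others), and 17.0% of all genes passed in the library fit. Strain changes with the parents' genotype, so the cross of strains and that of genotypes cannot be told apart. Only null embryos had no wild-type parent, and their anp32e was at 2.96% of the wild-type mean. In maternal null and paternal null it was at 44.7% and 51.9%. Loss of both copies in the embryo and a joint effect of the parents' genotypes cannot be told apart either.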

How the results depend on the processing

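Of the 10 genes, tp63 was called in null against wild type under all alternatives run (log2 fold change 2.01 to 2.40, edgeR or DESeq2 adjusted p up to 0.0271), as were the listed genes id2b, id4 and foxi3a. With near-identical pairs summed, and then with the filter also recomputed (chosen after seeing the data), the genes called went from 6938 to 878 and 1052 in null against wild type, and the members from 5 to 1 and 2. Genes went from 1151 to 90 and 120 in maternal null, from 1346 to 16 and 50 in paternal null, and from 1778 to 79 and 104 between the crosses, with 0 members called in each. They went from 6129 to 140 and 228 for null against maternal null (members from 6 to 0 and 0), from 6915 to 226 and 373 against paternal null (members from 7 to 0 and 1), from 3261 to 22 and 67 for the interaction (members from 4 to 0 and 0), and from 13540 to 6349 and 6514 for sphere (members from 10 to 5 and 5).

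With the libraries of the groups compared only, 1876 genes and 1 member were called in null, 0 and 0 in either cross against wild type, 10237 and 9 between the crosses, and 13117 and 13746 genes for null against maternal and paternal null, where only near-identical pairs gave the spread. It was 8832 genes for sphere. Library totals alone (chosen after seeing the data) gave 1 member in each cross against wild type, and 779 genes in paternal null. Between the crosses RLE factors and no filter gave 1 member each, and no filter gave 0 in paternal null against wild type. The replicate block gave 568 genes in maternal null and 640 in paternal null with 0 members, 1119 genes and 1 member between the crosses, and 2 members for the interaction. The block moved no other count by over 1.5 times (6155 genes in null), and same-numbered libraries did not deviate together.

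Leaving out 1 library gave 2694 to 14237 genes and 2 to 10 members in null against wild type, 44 to 11075 and 0 to 9 in maternal null, 0 to 10494 and 0 to 9 in paternal null, 77 to 149 and 0 between the crosses, 1487 to 1744 and 2 to 3 for null against maternal null, 2309 to 2442 and 1 against paternal null, 0 to 12204 and 0 to 10 for the interaction, 11185 to 14392 and 7 to 10 for sphere, and 15571 to 16328 and 10 for the libraries labelled sperm. Without a wild-type library, only near-identical pairs give the shield spread. Without wild type replicate 1, tfap2a turned to -0.37 in maternal null and -0.26 in paternal null (1.01 and 1.14 without replicate 2). Without wild type replicate 2 ved turned to 0.15 in paternal null (-0.21 without replicate 1). Over the 10 genes and 9 comparisons, 596 of 710 values kept direction and side of the threshold under the other alternatives, 100 lost a call and 14 gained one, with 0 reversed. With 1 library left out 265 of 400 kept their side of the threshold, 93 lost a call, 39 gained one and 3 reversed. Of the 265, 3 turned in sign with no call before or after, and under the other alternatives 0 did. Counting error was not the limit for most members, but tp63 rests on 56 to 457 counts in wild type and null, and the listed genes id2b and foxi3a on 1 to 4 counts in a wild-type library.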
